A study of Mus musculus with 2 samples.

Results

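The genes described here are 30 lysosomal hydrolases, their activators and lysosomal membrane proteins, taken as a named list and read from the whole-heart transcriptome of mice that received either a CHAPIR mimic, copying a piRNA of the heart, or a scrambled mimic as negative control (NC). Values of the deposited transcripts were matched by Ensembl identifier to mouse genes and summed. All 30 were found among the 12395 genes so obtained, and every one reached 1 FPKM or more, so no member was lost to the filter on low values. FPKM counts sequenced fragments relative to transcript length and library size. The unit is an inference, because neither the table header nor the labels name it and the values do not tell FPKM from TPM.

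The CHAPIR sample came from hearts of C57BL/6 mice that carried an osmotic minipump for 14 days with the CHAPIR mimic at 30 mg/kg. The NC sample came from C57BL/6 hearts after the scrambled mimic, given by the same pump procedure for the same time, with no dose stated for it. Each group held 1 sequenced sample. Age and sex are not given in the labels, nor whether a library was made from 1 animal or several, and no heart cell type is named as the target of the mimic. Without replicates nothing can be tested, the spread between animals is not known, and every difference below describes these 2 samples.

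Lysosomes are acidic organelles in which proteases, glycosidases and lipases break down material delivered by endocytosis, phagocytosis and autophagy. Most of these enzymes are made as precursors and reach the lysosome through mannose-6-phosphate receptors, while membrane glycoproteins such as LAMP1 and LAMP2 line the organelle. Heart muscle depends on them: inherited loss of acid alpha-glucosidase causes Pompe disease, and loss of LAMP2 causes Danon disease, both human disorders with cardiomyopathy. Macrophages are also rich in lysosomes.

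The samples differed in more than the mimic, and here and below folds and log2 ratios are CHAPIR over NC with 1 FPKM added to each value. Eif2s3y and Ddx3y, both Y-linked, were at 22.1 and 21.6 FPKM in the CHAPIR sample, against 0 for both in the NC sample, so apparent sex and mimic cannot be told apart. All 15 cardiomyocyte markers were measured in these samples, which are labelled heart, with a summed level of 26573 FPKM in the CHAPIR sample and 28536 FPKM in the NC sample and a median log2 ratio of -0.17. Macrophage markers were higher in the CHAPIR sample in 21 of 21 genes, 13 of them by 1.5-fold, with summed levels of 601 and 348 FPKM in the CHAPIR and NC samples and no marker at 0. Over the whole table, at a floor of 1 FPKM on the mean, 6.39% of genes were higher and 3.59% lower by 1.5-fold. All 16 interferon and antigen presentation genes were higher by 1.5-fold, with Ciita reaching the floor only through the CHAPIR sample. White adipocyte markers had 7 of 10 lower by 1.5-fold, with summed levels of 69.5 and 168 FPKM. Among the 7, Retn and Plin1 reached the floor only through the NC sample, at 2.69 and 3.98 FPKM there. Retn was listed at 0 in the CHAPIR sample. Of 12 fibroblast markers 2 were higher by 1.5-fold and 0 lower. Most blood cell markers did not reach the floor: 2 of 10 neutrophil, 2 of 12 T and NK cell, 1 of 9 B cell and 6 of 9 platelet markers did, and Gp9, Itga2b and Gzmb only through the CHAPIR sample, so nothing is read from the 2, 1, 1 and 4 of these that were higher by 1.5-fold. Among 13 endothelial and 5 red cell markers none passed 1.5-fold, and of 10 smooth muscle and pericyte markers 1 was lower. In whole-heart RNA, fewer cells of a type and less RNA per cell cannot be told apart.

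A known shared feature of lysosomal genes is the CLEAR element, a promoter motif with the core CACGTG that is bound by the transcription factors TFEB, TFE3 and MITF. RefSeq promoter windows on GRCm38.p6, reaching from 250 bases before to 50 bases after an annotated start, were at hand for 26 of the 30 genes. The extended core TCACGTG, searched with its reverse complement CACGTGA so that both strands are covered, stood in windows of 7 of the 26. Of all 27025 genes with a window, 4.29% held it. Every match also contains CACGTG, which 9 of the 26 and 8.09% of all genes held. The 7 stretches are printed because they show the sequence these genes have in common, with TCACGTG or CACGTGA in capitals, 5′ to 3′ on the strand of the gene.
Ctsa: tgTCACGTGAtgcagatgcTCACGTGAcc
Ctsd: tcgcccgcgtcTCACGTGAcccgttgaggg
Mcoln1: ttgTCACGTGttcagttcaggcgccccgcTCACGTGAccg
Lamp1: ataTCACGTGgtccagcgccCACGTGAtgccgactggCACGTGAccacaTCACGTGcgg
Glb1: ctgcttctgagTCACGTGgcctacagagg
Gaa: tttctgtgcgaTCACGTGtttgactctga
Lgmn: tggaatgtctgTCACGTGgtccattttat

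The stretch of Lamp1 (chr8:13159096-13159154, plus strand) held 4 matches within the 65 bases before the start, and that of Mcoln1 (chr8:3500444-3500483, plus strand) lay 75 to 36 bases before it. In Ctsa (chr2:164833758-164833786, plus strand) the motif was palindromic, as TCACGTGA, and occurred on both sides of the second of its annotated starts. Ctsd (chr7:142387908-142387937, minus strand) held the same palindrome, with 1 more match, CACGTGA, further upstream that is not shown. The palindrome also stood in the Mcoln1 stretch, so 3 of the 26 genes held it, against 1.12% of all genes with a window. Glb1 (chr9:114401018-114401046, plus strand), Gaa (chr11:119267811-119267839, plus strand) and Lgmn (chr12:102439125-102439153, minus strand) held 1 match each. The stretches of Ctsa, Ctsd and part of Mcoln1 lie in exons of the GENCODE M21 annotation, whose transcripts start further upstream than the RefSeq start.

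None of the 7 genes with TCACGTG differed by 1.5-fold between the samples, and 2 of the 19 genes whose windows lacked it did. With 6.81% of all genes higher and 3.85% lower by that fold, neither count stood out. For the 7 genes the median log2 ratio was -0.08, with a range of -0.19 for Gaa to 0.23 for Lgmn. The 19 others had a median of 0.07 and a range of -0.66 to 0.76. The 7 genes had a median level of 35.03 FPKM in the CHAPIR sample and 36.9 FPKM in the NC sample, against 17.1 and 20.4 FPKM for the 19 without it. A match is a description of the sequence and not a measured site.

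As a whole, lysosomal transcripts were about equally abundant in both hearts. The 30 genes summed to 1399.7 FPKM in the CHAPIR sample and 1412 FPKM in the NC sample, which was 0.529% and 0.528% of the summed level of all genes that are not mitochondrially encoded. Their median level of 22.1 FPKM in the CHAPIR sample and 20.99 FPKM in the NC sample lay above the median of all genes, 6.64 and 6.46 FPKM. Psap, Ctsd and Lamp1 were the 3 most abundant in both samples and made up 48.5% of the sum in the CHAPIR sample and 52.0% in the NC sample. The order of the 30 levels was nearly the same in both, with a rank correlation (Spearman) of 0.98 over the 30 genes, given as a description.

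**Figure D1:**
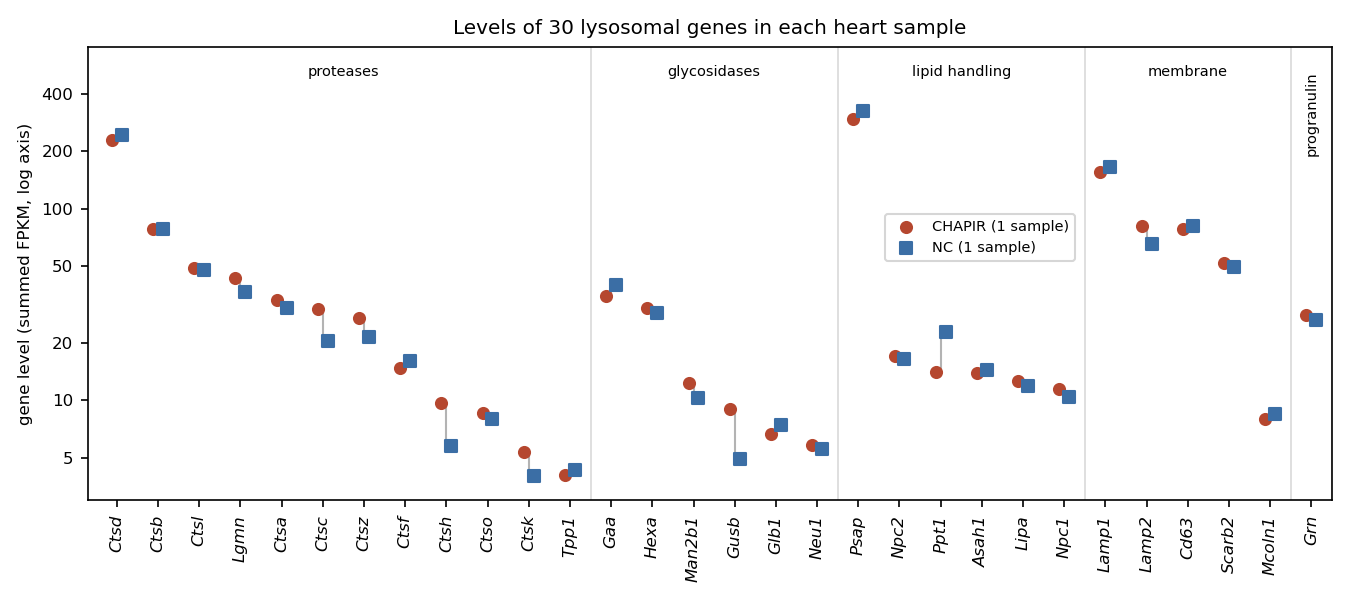
Level of each of the 30 genes, in summed FPKM on a log axis, with the CHAPIR sample as circles and the NC sample as squares, grouped by the role of the protein. The points nearly coincide for most genes, from Psap at 294 and 325 FPKM down to Tpp1 at 4.08 and 4.34 FPKM, and stand apart for Ctsh, Gusb, Ctsc and Ppt1.

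At a 1.5-fold threshold, 2 of the 30 genes were higher in the CHAPIR sample, Gusb and Ctsh, and 1 was lower, Ppt1. Among all 11416 genes that reached 1 FPKM in either sample, 6.81% were higher and 3.85% lower by the same threshold, so the counts of lysosomal genes were about those of any genes. A positive log2 ratio was found for 19 of the 30, against 50.9% of all genes, and the median was 0.06, against 0.01 over all genes. Differences below 1.2-fold were found for 23 of the 30 genes, and for 67.8% of all genes. The median absolute log2 ratio was 0.10 among the 30 genes and 0.14 among the 7222 genes within the same range of levels.

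**Figure D2:**
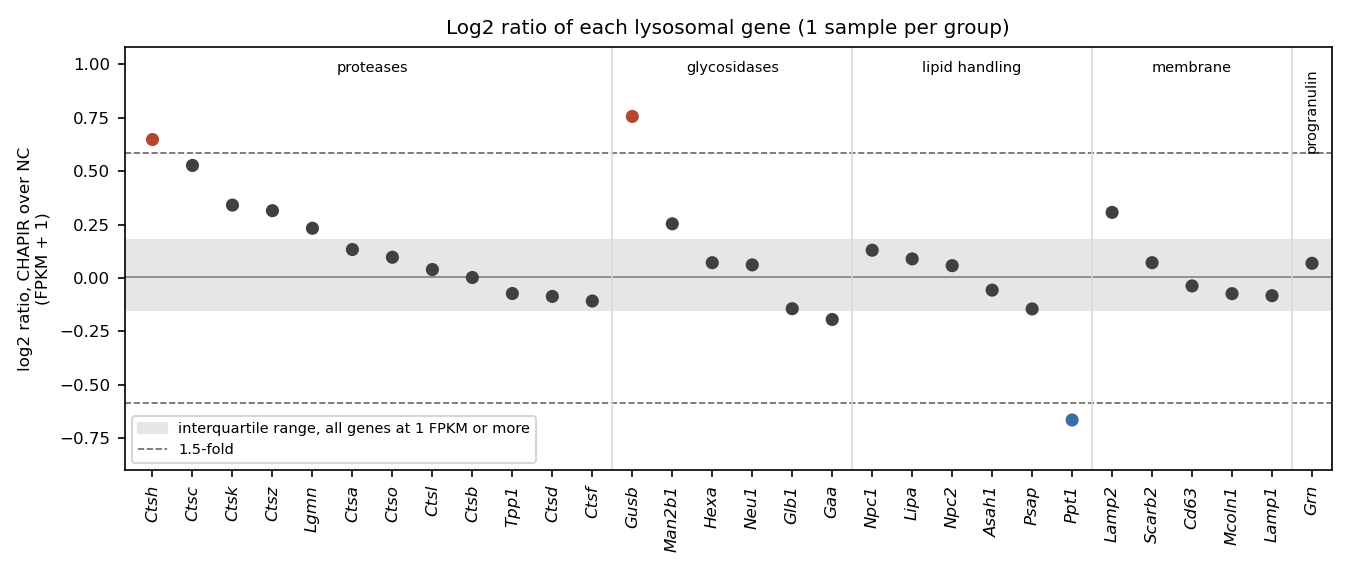
Log2 ratio of each gene, CHAPIR over NC on FPKM + 1, grouped by role, with dashed lines at 1.5-fold and a grey band for the interquartile range of all genes that reached 1 FPKM. Ctsh at 0.65 and Gusb at 0.76 lie above the upper line, Ppt1 at -0.66 lies below the lower one, and Ctsc at 0.53 is just inside.

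The 12 proteases summed to 534 FPKM in the CHAPIR sample and 518 FPKM in the NC sample. Ctsd encodes cathepsin D, the main aspartic protease of the lysosome, and was at 230 FPKM in the CHAPIR sample and 244 FPKM in the NC sample. It made up 43.0% and 47.1% of the protease sum, as the most abundant protease of both hearts. Ctsb and Ctsl, broad cysteine endopeptidases, were at 78.8 against 78.7 FPKM and at 49.4 against 48.02 FPKM, among the closest matches of the list. Ctsa, a serine carboxypeptidase that also protects beta-galactosidase and neuraminidase in a complex, was at 33.3 against 30.3 FPKM.

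Ctsh, Ctsc and Ctsz, all cysteine cathepsins, had higher values in the CHAPIR sample and are grouped here after their values were seen. The other cysteine cathepsins of the list had log2 ratios of 0.34 (Ctsk), 0.10 (Ctso), 0.04 (Ctsl), 0.002 (Ctsb) and -0.11 (Ctsf). Ctsh (chromosome 9, 90054152 to 90076089), an aminopeptidase, was at 9.64 FPKM in the CHAPIR sample and 5.79 FPKM in the NC sample, a log2 ratio of 0.65. Of the 500 genes nearest in level, 10% had a ratio at least as large in size. Both of its listed transcripts were higher, ENSMUST00000034915.14 at 4.78 against 2.70 FPKM and ENSMUST00000185459.1 at 4.86 against 3.09 FPKM. Ctsc (chromosome 7, 88278085 to 88310888), the dipeptidyl peptidase that activates granule serine proteases of leukocytes, was at 29.9 against 20.4 FPKM. Its log2 ratio of 0.53 stayed below the threshold, a size that 9.6% of genes of like level reached. All 3 of its listed transcripts were higher, but ENSMUST00000128791.1, at 0.66 against 0.24 FPKM, was listed only through its CHAPIR value. Ctsz, a carboxypeptidase, was at 27.04 against 21.5 FPKM, with a log2 ratio of 0.31.

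Of the other proteases, Ctsk had a larger log2 ratio than Ctsz. Ctsk, the collagen-degrading cathepsin best known from osteoclasts, was at 5.37 FPKM in the CHAPIR sample and 4.03 FPKM in the NC sample, a log2 ratio of 0.34 at a low level. Lgmn, the asparaginyl endopeptidase legumain, which also processes other cathepsins, was at 43.5 against 36.9 FPKM. Ctso was at 8.58 against 7.96 FPKM and Ctsf at 14.8 against 16.01 FPKM. Tpp1, the tripeptidyl peptidase lost in a form of neuronal ceroid lipofuscinosis, was the least abundant member in the CHAPIR sample, at 4.08 against 4.34 FPKM, with 1 of its 10 annotated transcripts listed. In all, 9 of the 12 proteases had a positive log2 ratio, with a median of 0.12.

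Macrophage markers were higher in the CHAPIR sample, with a median log2 ratio of 0.70 over the 21 genes. The highest were Aif1, at 9.16 FPKM in the CHAPIR sample and 3.54 FPKM in the NC sample, and Fcgr1, at 3.19 against 1.05 FPKM. The lowest were Cd14, at 4.31 against 3.85 FPKM, and Mertk, at 4.03 against 3.17 FPKM. Their part in the protease values was not tested.

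Of the 6 glycosidases, Gusb stood apart. Gusb (chromosome 5, 129989011 to 130003049), the beta-glucuronidase that trims glycosaminoglycans, was at 9.02 FPKM in the CHAPIR sample and 4.94 FPKM in the NC sample. Its log2 ratio of 0.76 was the highest of the 30 genes, and 5.8% of the 500 genes nearest in level had one as large in size. The long transcript ENSMUST00000026613.13, with 12 exons, was at 7.10 against 3.92 FPKM, and ENSMUST00000111308.7, with 4 exons, at 1.93 against 1.02 FPKM, so both pointed the same way.

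Man2b1, the lysosomal alpha-mannosidase, was at 12.4 FPKM in the CHAPIR sample and 10.2 FPKM in the NC sample. Hexa, the alpha subunit of beta-hexosaminidase, was at 30.3 against 28.8 FPKM. Neu1, the sialidase, was at 5.84 against 5.56 FPKM, and Glb1, the beta-galactosidase held with it by the product of Ctsa, at 6.66 against 7.46 FPKM. Gaa, the acid alpha-glucosidase that breaks down lysosomal glycogen, was at 35.03 against 40.2 FPKM, with a log2 ratio of -0.19. The sums of the glycosidases were 99.2 and 97.2 FPKM in the CHAPIR and NC samples.

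The 6 genes of lipid breakdown and export were dominated by Psap, which encodes prosaposin, the precursor of the saposins that present sphingolipids to their hydrolases. Psap was at 294 FPKM in the CHAPIR sample and 325 FPKM in the NC sample. Its 2 main transcripts kept their proportions: ENSMUST00000105465.7, with a coding sequence of 1665 bases, made up 82.2% of the gene in the CHAPIR sample and 82.5% in the NC sample, and ENSMUST00000179238.7, with 1674 bases, 16.1% and 15.9%. Npc1 and Npc2, which pass cholesterol out of the lysosome, were at 11.5 against 10.4 FPKM and 17.1 against 16.4 FPKM. For the acid lipase gene Lipa the level was 12.7 against 11.9 FPKM and for the acid ceramidase gene Asah1 it was 13.8 against 14.4 FPKM.

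Ppt1 (chromosome 4, 122836242 to 122859175), the thioesterase that removes palmitate from proteins, was the only gene of the 30 lower by 1.5-fold in the CHAPIR sample. It was at 14.04 FPKM there and at 22.8 FPKM in the NC sample, a log2 ratio of -0.66, a size that 8.8% of genes of like level reached. The difference was that of its longest listed transcript. ENSMUST00000030412.10, with 9 exons, was at 7.92 against 20.9 FPKM, while the shorter ENSMUST00000097902.4, with 6 exons, was at 4.04 against 0.35 FPKM and ENSMUST00000121870.7, with 5 exons, at 2.08 against 1.55 FPKM. The long form thus made up 56.4% of Ppt1 in the CHAPIR sample and 91.7% in the NC sample. Exons of Ppt1 overlap those of Cap1, on the opposite strand, by 129 bases.

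Membrane proteins summed to 375 FPKM in the CHAPIR sample and 369 FPKM in the NC sample. Lamp1, the most abundant of them, was at 156 against 165 FPKM. Scarb2, the receptor that carries beta-glucocerebrosidase to the lysosome, was at 52.1 against 49.5 FPKM. The tetraspanin gene Cd63 was at 78.9 against 81.0 FPKM, and Mcoln1, a calcium channel of the lysosomal membrane, at 7.99 against 8.46 FPKM. Grn, which encodes progranulin, a secreted precursor cut into granulins inside lysosomes, was at 27.7 against 26.4 FPKM.

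Lamp2 (chromosome X, 38401357 to 38456454) was the membrane gene that differed most, at 80.9 FPKM in the CHAPIR sample and 65.2 FPKM in the NC sample, a log2 ratio of 0.31. It is spliced into 3 forms that share the luminal part and differ in the last coding exon, which encodes the membrane span and the cytosolic tail. Form A is the receptor of chaperone-mediated autophagy, form B is the main form of heart and skeletal muscle, and form C has been linked to the uptake of nucleic acids. The listed transcripts were named by the last residues that their coding sequences encode. The first 1109 coding bases are the same in all of them, so the forms are told apart by 139 to 142 coding bases and the rest of the last exon. The last 45 coding bases are shown for each, 5′ to 3′, with the end of the tail, which holds the tyrosine sorting signal, and the stop codon in capitals.
Lamp2 form A: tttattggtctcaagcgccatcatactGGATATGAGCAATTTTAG
Lamp2 form B: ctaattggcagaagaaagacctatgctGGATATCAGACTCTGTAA
Lamp2 form C: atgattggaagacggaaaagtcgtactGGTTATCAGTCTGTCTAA

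Form B, ENSMUST00000061755.8, was the most abundant in both hearts, at 55.97 FPKM in the CHAPIR sample and 52.9 FPKM in the NC sample. Form A, ENSMUST00000016678.13, was at 17.5 against 7.83 FPKM, with a log2 ratio of 1.07. Form C, ENSMUST00000074913.11, was at 7.46 against 4.49 FPKM, with a log2 ratio of 0.62. The gene-level difference of Lamp2 was therefore mostly that of form A, whose share of the gene was 21.6% in the CHAPIR sample and 12.01% in the NC sample. Form B made up 69.2% and 81.1%.

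Transcripts of other members also differed in opposite directions. Of the 14 genes with more than 1 listed transcript, 3 held transcripts past 1.5-fold in opposite directions, Ppt1, Gaa and Ctsa, against 26.3% of all such genes. The call of Ctsa rests on ENSMUST00000103092.7, listed at 0 for CHAPIR against 1.05 FPKM for NC. Without transcripts listed at 0, a restriction chosen after seeing the data, 2 of the 14 genes remained, Ppt1 and Gaa, against 14.4% of all such genes. In 5 the most abundant transcript and the sum had log2 ratios of opposite sign, against 27.4% of all such genes. None of these counts stood out from the whole table.

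In Gaa, ENSMUST00000026666.12 was at 22.5 FPKM in the CHAPIR sample and 15.9 FPKM in the NC sample, and ENSMUST00000106259.8 at 5.45 against 14.4 FPKM. Both have a coding sequence of 2862 bases. The Gaa transcript higher by 1.5-fold was the shorter ENSMUST00000106258.1, at 2.11 against 1.06 FPKM. In Ctsa, the short ENSMUST00000127650.7, of 961 bases, was at 6.71 against 2.02 FPKM, while the most abundant ENSMUST00000103093.9 was at 26.1 against 26.8 FPKM. Exons of Ctsa overlap those of Pltp and Neurl2 on the opposite strand. The main transcripts of Cd63, both with 717 coding bases, stood at 45.8 against 34.04 FPKM for ENSMUST00000105229.8 and at 31.4 against 45.5 FPKM for ENSMUST00000026407.8, and ENSMUST00000220308.1, with 493, at 1.74 against 1.45 FPKM.

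**Figure D3:**
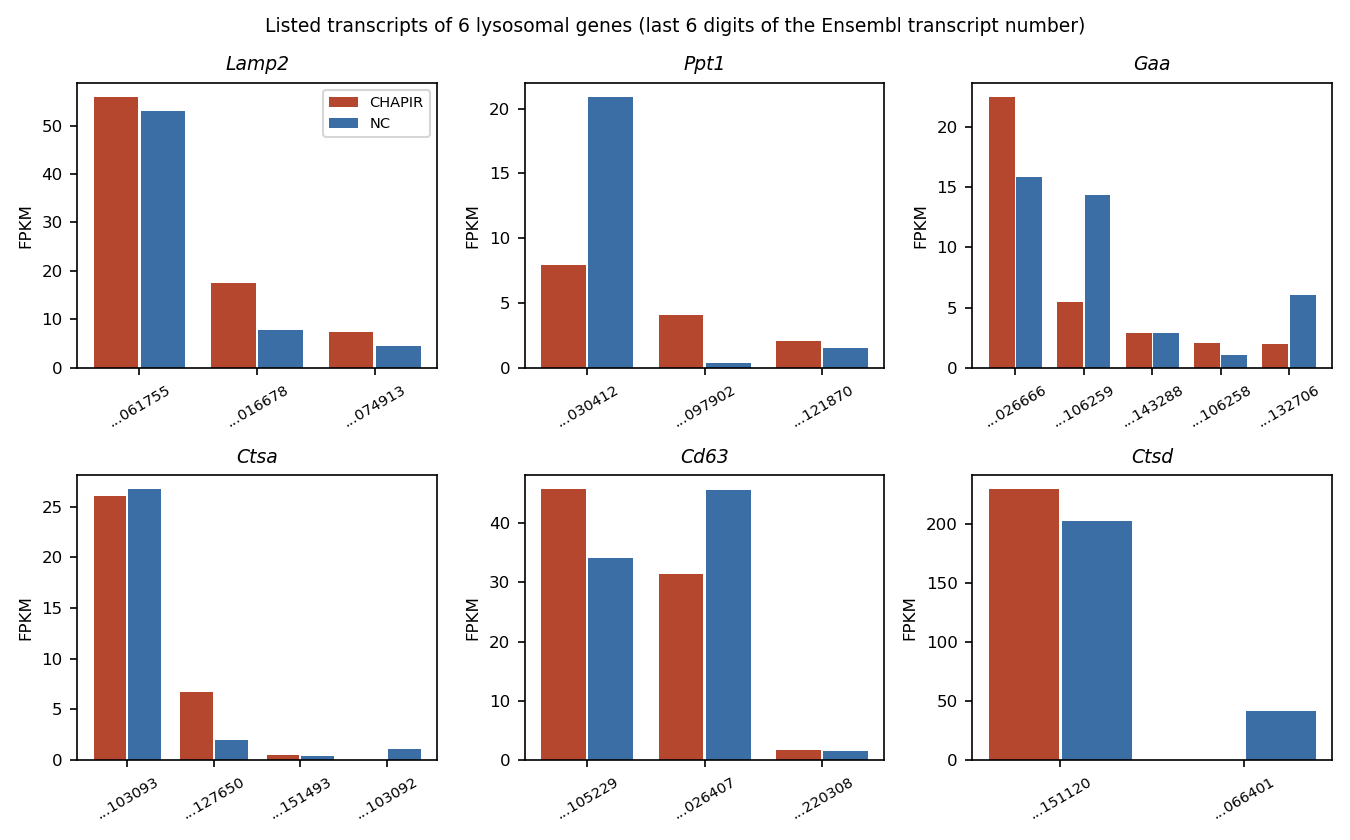
FPKM of each listed transcript of Lamp2, Ppt1, Gaa, Ctsa, Cd63 and Ctsd, with the CHAPIR sample as the left bar and the NC sample as the right bar of each pair. In Lamp2 the second transcript, form A, is at 17.5 and 7.83 FPKM, and in Ppt1 the longest is at 7.92 and 20.9 FPKM.

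Ctsd had both a transcript listed at 0 and a neighbour with shared exons. ENSMUST00000151120.8 was at 230 FPKM in the CHAPIR sample and 203 FPKM in the NC sample, and ENSMUST00000066401.6 was listed at 0 for CHAPIR, against 41.2 FPKM for NC. Gm49369 (chromosome 7, 142371096 to 142382667), a gene model on the same strand that shares 808 exon bases with Ctsd, was at 25.05 against 3.40 FPKM. Summed with it, Ctsd came to 255 against 247 FPKM, with a log2 ratio of 0.04 in place of -0.09. Whether reads were divided between these genes was not tested. Of the 58 listed transcripts of the 30 genes, 4 were listed at 0 in the CHAPIR sample and 0 in the NC sample. Over the whole table, 1278 were at 0 in the CHAPIR sample and 1016 in the NC sample. An exact 0 can be a failed estimate, and no fold is given for it.

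Most lysosomal genes outside the list of 30 also lay within 1.5-fold. Of 31 other measured hydrolase genes, 3 were higher and 0 lower by 1.5-fold, against 6.39% and 3.59% of all genes at the same floor, a mean of 1 FPKM, and the median log2 ratio was 0.05. Ctss, the cathepsin that processes the invariant chain of MHC class II, was the highest, at 49.8 FPKM in the CHAPIR sample and 21.1 FPKM in the NC sample. Lyz2, the lysozyme of myeloid cells, was at 196 against 110 FPKM and is also on the macrophage list. Dnase2a was at 4.29 against 2.15 FPKM, with its 2 listed transcripts in opposite directions. ENSMUST00000003910.12, listed only through its CHAPIR value, was at 3.23 against 0.25 FPKM, and ENSMUST00000134569.1 at 1.06 against 1.90 FPKM. The lowest were Acp5, at 1.14 against 1.91 FPKM, and Pla2g15, at 3.61 against 4.70 FPKM.

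Among 26 other measured genes of the lysosomal membrane, 2 were higher and 1 lower by 1.5-fold, against 6.39% and 3.59% of all genes. Their median was 0.03. Slc15a3, a peptide and histidine transporter of immune cells, was at 2.31 FPKM in the CHAPIR sample and 0.39 FPKM in the NC sample, reaching the floor only through the CHAPIR value, and Laptm5, a protein of blood cell lysosomes, at 17.2 against 9.18 FPKM. Laptm4b was the lowest, at 13.1 against 26.4 FPKM, followed by the cystine transporter gene Ctns at 3.67 against 4.52 FPKM. Laptm4a, the paralog of Laptm4b, was at 163 against 161 FPKM. Cathepsin inhibitors were close, with cystatin C (Cst3) at 331 against 329 FPKM and Cstb at 18.2 against 17.2 FPKM.

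The V-ATPase is the proton pump that acidifies the lysosome. None of its 17 measured subunit and accessory genes passed 1.5-fold in either direction, against 6.39% of all genes higher and 3.59% lower. The median log2 ratio was -0.06 and the sums were 371 FPKM in the CHAPIR sample and 411 FPKM in the NC sample. Atp6v1e1 was the lowest, at 41.5 against 59.5 FPKM, followed by Atp6v0d1 at 18.6 against 23.2 FPKM. The highest were Atp6v1h, at 7.63 against 7.08 FPKM, and Atp6v0b, at 31.8 against 30.9 FPKM.

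The last list held regulators of lysosomal transcription and of the kinase complex mTORC1, which is activated on the lysosome. Of its 23 measured genes, 3 were higher and 2 lower by 1.5-fold, against 6.39% and 3.59% of all genes, with a median of -0.11. Tfeb, the factor that binds the CLEAR element, was at 8.46 FPKM in the CHAPIR sample and 10.1 FPKM in the NC sample, and its relative Mitf at 18.2 against 15.96 FPKM. Tfe3 was the highest, at 5.52 against 0.90 FPKM, above the floor only through the CHAPIR value. Of its 6 listed transcripts, 5 were higher, each listed only through its CHAPIR value, and the other only through its NC value. No listed transcript is below 0.5 in both samples, so these directions were fixed by the listing and nothing is read from them. The GTPase gene Rragc was at 17.8 against 9.87 FPKM. Tsc2, the remaining higher gene, was at 21.7 against 13.8 FPKM. The call of Tsc2 rests on ENSMUST00000227804.1, at 7.82 FPKM in the CHAPIR sample and listed at 0 in the NC sample. Among its other listed transcripts, ENSMUST00000227607.1 was higher, at 6.31 against 3.14 FPKM, and the rest were lower. Fnip2 and Flcn, partners in the folliculin complex that acts on Rag GTPases, were the lowest, at 1.57 against 3.97 FPKM and 8.17 against 12.8 FPKM.

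**Figure D4:**
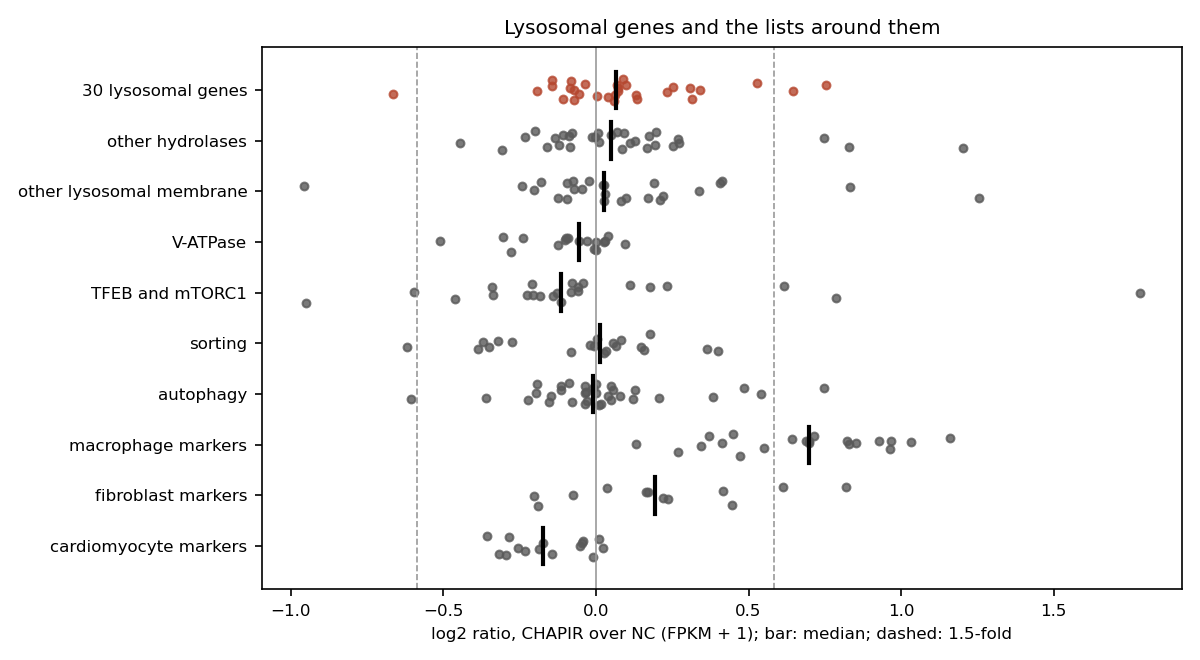
Log2 ratio of each measured gene, CHAPIR over NC on FPKM + 1, for the 30 lysosomal genes, 6 lists around the lysosome and 3 cell type marker lists, with a bar at each median and dashed lines at 1.5-fold. The lysosomal genes have a median of 0.06, the V-ATPase -0.06 and macrophage markers 0.70.

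Counting of overlapping genes limits some of these values. The library protocol marks strand, but no source used here says whether the counting did. Exons of 9 of the 30 genes overlap those of another listed gene, 7 of them on the opposite strand and 2 (Ctsd and Glb1) on the same one. Values of single transcripts depend on how the authors' software divided reads between forms that share most of their exons.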

How the data were processed

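Hearts were profiled by RNA sequencing, with 1 sample per group, so no test was possible. The authors deposited 1 value for each transcript in each sample, scaled to transcript length and library size if it is FPKM, as read here. That unit is an inference from values with decimals: times transcript length in kilobases they sum to 739668 in the CHAPIR sample and 732588 in the NC sample, which FPKM allows, but their plain sums of 401938 and 394675 would be allowed for TPM too, so the values do not tell these units apart. Per the submitters' processing notes, the tools were HISAT2 2.0.5, STAR 2.5.2b, StringTie and cutadapt, on GRCm38, with no roles given. The table lists 23178 transcripts, none below 0.5 in both libraries. No whole-read steps were found, so depth is unknown and intervals from counts are not given.

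Identifiers without version matched GENCODE M21 for 23128 transcripts, and 50 were left out. Values were summed per gene with pandas 2.3.3, and log2 ratios used a pseudocount of 1, which understates changes of low genes. Genes reaching 1 in either sample were counted at 1.5-fold on this scale, and genes of the other lists at a mean of 1 or more. Promoter sequences are RefSeq's and coding sequences GENCODE's. Sums and counts were tested on simulated data.

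The members and lists were chosen with earlier results of these data known. All 30 members are named, and of each other lysosome-related list and the macrophage list the 2 highest and 2 lowest genes, and all of the cystatins. Other marker lists are given as counts, although the naming rule covered them, and further genes are examples chosen after their values were seen.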

Additional observations from a re-analysis of the deposited data

How the results depend on the processing

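No paired analysis was possible because there was 1 sample per group, and none could be left out. What depth limits cannot be said, since the values carry no counts. With a pseudocount of 5, 0 of the 30 genes were higher and 0 lower by 1.5-fold, against 2.37% and 1.2% of all genes, on a scale that shrinks ratios of low genes. With the most abundant transcript in place of the sum, 1 was higher (Gusb) and 1 lower (Ppt1), against 10.7% and 7.52% of all genes, the cause was not tested, and the log2 ratio became 0.48 for Gaa, 0.42 for Cd63 and -1.30 for Ppt1. Among the 16 genes with 1 listed transcript, a restriction chosen after seeing the data, 0 were higher, 0 lower and 11 positive. Of all genes, whatever their number of transcripts, 50.9% were positive. The counts of 0 were fixed by the restriction, since Gusb, Ctsh and Ppt1 have more than 1 listed transcript. The median of 0.06 moved by less than 0.049, the SD among members divided by the root of their number, in every alternative tried. These were a pseudocount of 0.1 or 5, a mean of at least 5 or no filter, centring, and quantile normalization. The others were rescaling without mitochondrially encoded and the 50 most abundant genes, the most abundant transcript, and 1 listed transcript. That limit of 0.049 describes the spread among members and not between animals. With no filter the median could not move, because every member already passed the filter. Of single-gene values, 236 moved by less than the SD of the 500 genes nearest in level or not at all, and 3 by more. None past 1.5-fold changed sign. Part of the 236 could not move: filters do not alter a gene's ratio. The most abundant transcript is also the sum where only 1 is listed.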

Other observations

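Autophagy genes, which deliver cargo to the lysosome, had 1 of 33 measured members higher and 1 lower by 1.5-fold. Of all genes at the same floor 6.39% were higher and 3.59% lower. The median log2 ratio of the autophagy genes was -0.01. Rb1cc1, a scaffold of the initiation kinase complex, was the highest at 14.3 FPKM in the CHAPIR sample and 8.09 FPKM in the NC sample. Its short transcript ENSMUST00000159530.1 was at 9.24 against 1.24 FPKM, while the longest, ENSMUST00000027040.12, was at 5.02 against 4.61 FPKM. Atg16l1 followed at 6.84 against 4.39 FPKM. The lowest were Map1lc3a, at 83.1 against 127 FPKM, and Atg7, at 3.31 against 4.53 FPKM. The related Map1lc3b was at 39.9 FPKM in both libraries, and the cargo receptor gene Sqstm1 at 131 against 134 FPKM.

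Genes of enzyme sorting to the lysosome had 0 of 20 measured members higher and 1 lower, against 6.39% and 3.59% of all genes. Their median was 0.01. The lower one was Vps29, a retromer subunit gene, at 8.93 FPKM in the CHAPIR sample and 14.2 FPKM in the NC sample, followed by Rab7 at 61.7 against 80.9 FPKM. The adaptor gene Gga2 was the highest, at 6.92 against 5.004 FPKM. The mannose-6-phosphate receptor genes M6pr and Igf2r were at 10.6 against 7.996 FPKM and 23.4 against 22.1 FPKM.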
